A study of Mus musculus with 6 samples.

Results

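The genes described here encode the potassium channels, that is the pore-forming subunits and the auxiliary subunits whose mouse symbols start with Kcn. Probes were assigned to genes through their transcript accession. A gene was taken as a member when at least 1 of its probes was well above background, by the scanner software's own test, on both arrays of at least 1 genotype and had an unflagged spot on all 6 arrays. The gene table held 98 such symbols, 93 had a probe on the array, and 81 passed that filter, out of 22863 tested genes in all. The 81 members comprised 34 voltage-gated subunits, 14 inward rectifiers, 11 two-pore channels, 6 calcium-activated or related channels, 14 auxiliary subunits and 2 genes of other kinds, and 77 of them were well above background on all 6 arrays. The 12 genes that had a probe but did not pass included Kcna10, Kcng3, Kcng4, Kcnv2, Kcnj1, Kcnk5, Kcnk18, Kcnn1, Kcnn4, Kcne1 and the antisense transcript Kcnmb4os1. Of these, Kcng4 was well above background on both Trsp-RIPKO and both TrspFF arrays but had only a flagged spot on Trsp-Ins1KO array 1, so it was not fitted; its levels on the other arrays were -3.61 and -3.44 in Trsp-RIPKO, -3.17 in Trsp-Ins1KO and -3.26 and -3.26 in TrspFF (log2 signal against the 75th percentile of the array). Kcng2, Kcnk7, Kcnmb3, Kcnd3os and Kcnmb4os2 had no probe.

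RNA came from hypothalami of C57BL/6J males at 16 weeks of age, and each sample was read on 1 single-colour Cy3 array, with 2 arrays per genotype. Trsp-RIPKO mice carried TrspFlox/Flox with RIP-Cre, Trsp-Ins1KO mice carried TrspFlox/Flox with Ins1-Cre, and TrspFF mice, the controls, carried TrspFlox/Flox alone, so the floxed alleles were common to all groups. RIP-Cre is driven by the rat insulin promoter, which is active in pancreatic beta cells and also in a subset of hypothalamic neurons, whereas Ins1-Cre is expressed from the Ins1 locus and is largely restricted to beta cells. Trsp encodes the selenocysteine transfer RNA needed to make every selenoprotein, and the series asks what its conditional loss, with the accompanying oxidative stress, does to hypothalamic transcripts. Trsp has no probe on this array, so the targeted gene could not be read in any sample. The labels do not say whether the arrays of a genotype came from separate animals, so the p-values rest on array-to-array spread alone, and that spread may be technical.

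A level is the log2 of the background-subtracted spot signal minus the log2 of the 75th percentile of its array, so that 0 equals that percentile. Levels of different genes come from different probes and are not compared with each other. The 75th percentile of signal lay between 1391 and 2137 units, no probe was saturated, and each array had 68.9% to 72% of its probes well above background. Of the 18 hypothalamus markers listed for this check, 16 were tested, 15 were well above background on all 6 arrays, and their mean level was 0.20 and 0.08 on the Trsp-RIPKO arrays, 0.65 and 0.61 on the Trsp-Ins1KO arrays and 0.26 and -0.00 on the TrspFF arrays. Both TrspFF arrays lay on 1 slide with 1 scan and all 4 knockout arrays on another, so slide and genotype cannot be told apart in comparisons with TrspFF; Trsp-RIPKO and Trsp-Ins1KO were compared within 1 slide. The deposited value table and the scanner files attach the names Trsp-RIPKO and Trsp-Ins1KO to opposite arrays (each column of the table matched an array of the other knockout at r of at least 0.99997). Names of the scanner files are used throughout, so every statement about 1 knockout rests on them, whereas the mean of both knockouts against TrspFF does not. Trsp-Ins1KO array 2 stood apart for 5 members (Kcne2, Kcnh3, Kcnj13, Kcnj4 and Kcnv1), each of which differed by more than 1 log2 unit from Trsp-Ins1KO array 1. In whole tissue, fewer cells of a type and less RNA per cell cannot be told apart.

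Potassium channels let potassium leave or, for the inward rectifiers, enter cells along its gradient, and so set the resting potential and end each action potential. Voltage-gated subunits open on depolarization, two-pore channels carry the background leak, inward rectifiers are controlled by G proteins, nucleotides or polyamines, and calcium-activated channels couple firing to calcium entry. In the hypothalamus, ATP-sensitive, G-protein-gated and M-current potassium channels are known for their part in the firing of neurons that respond to glucose, leptin, insulin and neuropeptides.

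**Figure D1:**
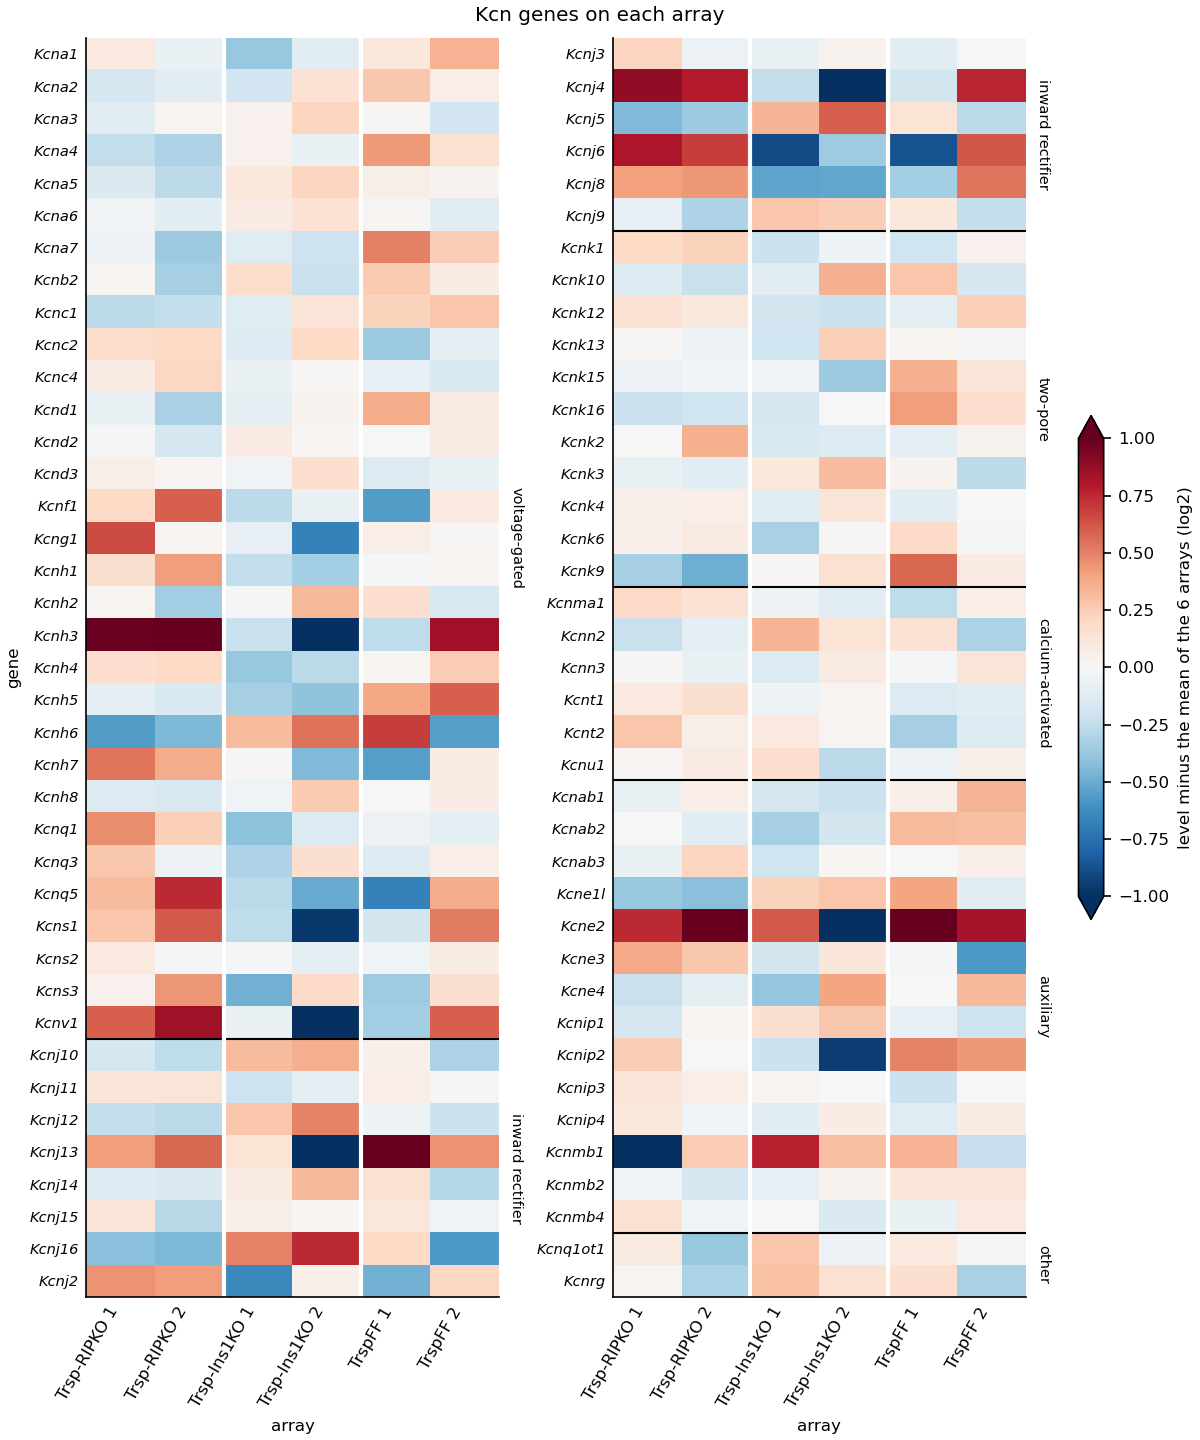
Level of Kcn genes on each array (3 of the 81 are not shown), minus its mean over the 6 arrays (log2, colour; values beyond -1 or 1 take the darkest colour), by channel class, with Trsp-RIPKO arrays at the left of each panel and TrspFF arrays at the right. Most genes differ little between arrays, and the darkest cells include Kcnh3, Kcnj4, Kcnj13, Kcne2 and Kcnv1 on Trsp-Ins1KO array 2 and Kcnmb1 on Trsp-RIPKO array 1.

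Of the potassium channel genes, 1 passed the test in any comparison: Kcnh5, which was lower in Trsp-Ins1KO, and in the mean of both knockouts, than in TrspFF. Between Trsp-RIPKO and TrspFF, 0 of the 81 members reached an adjusted p of 0.05 (limma, adjusted over all tested genes), against 1.66% of all genes, and the smallest adjusted p in limma was 0.0710. At an unadjusted p under 0.05 there were 18 members, or 22.2%, against 23.9% of all genes. Between Trsp-Ins1KO and TrspFF, 1 member was called, against 1.82% of all genes, and it was lower, as were 1.58% of all genes; at an unadjusted p under 0.05 there were 14 members (17.3%), against 26% of all genes. Between Trsp-RIPKO and Trsp-Ins1KO, 0 members were called, against 0.0175% of all genes, with 22 members (27.2%) at an unadjusted p under 0.05, against 18.4% of all genes. For the mean of both knockouts against TrspFF, 1 member was called, against 3.7% of all genes, and it was lower, as were 3.14% of all genes; 14 members (17.3%) had an unadjusted p under 0.05, against 26.1% of all genes. The comparisons with TrspFF share the same 2 control arrays.

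The median difference over the 81 members was -0.02 for Trsp-RIPKO minus TrspFF, -0.05 for Trsp-Ins1KO minus TrspFF and 0.10 for Trsp-RIPKO minus Trsp-Ins1KO (log2), where the medians over all tested genes were -0.01, 0.02 and -0.05. In the first of these, 42 of the 81 members (51.9%) had arrays that did not overlap between the genotypes, against 58.3% of all genes; in the second it was 39 members (48.1%), against 58.2%; in the third it was 56 members (69.1%), against 58.6%. The classes had medians close to 0. For Trsp-RIPKO minus TrspFF the medians were 0.04 for voltage-gated subunits, -0.08 for inward rectifiers, -0.02 for two-pore channels, 0.15 for calcium-activated channels and -0.20 for auxiliary subunits. For Trsp-Ins1KO minus TrspFF the medians were -0.13 for voltage-gated subunits, 0.02 for inward rectifiers, -0.11 for two-pore channels, 0.06 for calcium-activated channels and -0.10 for auxiliary subunits. Inward rectifiers had the most unequal values between the knockouts: the median absolute difference of Trsp-RIPKO minus Trsp-Ins1KO was 0.68 for the 14 inward rectifiers, 0.26 for voltage-gated subunits, 0.30 for two-pore channels, 0.12 for calcium-activated channels, 0.20 for auxiliary subunits and 0.18 for all tested genes.

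**Figure D2:**
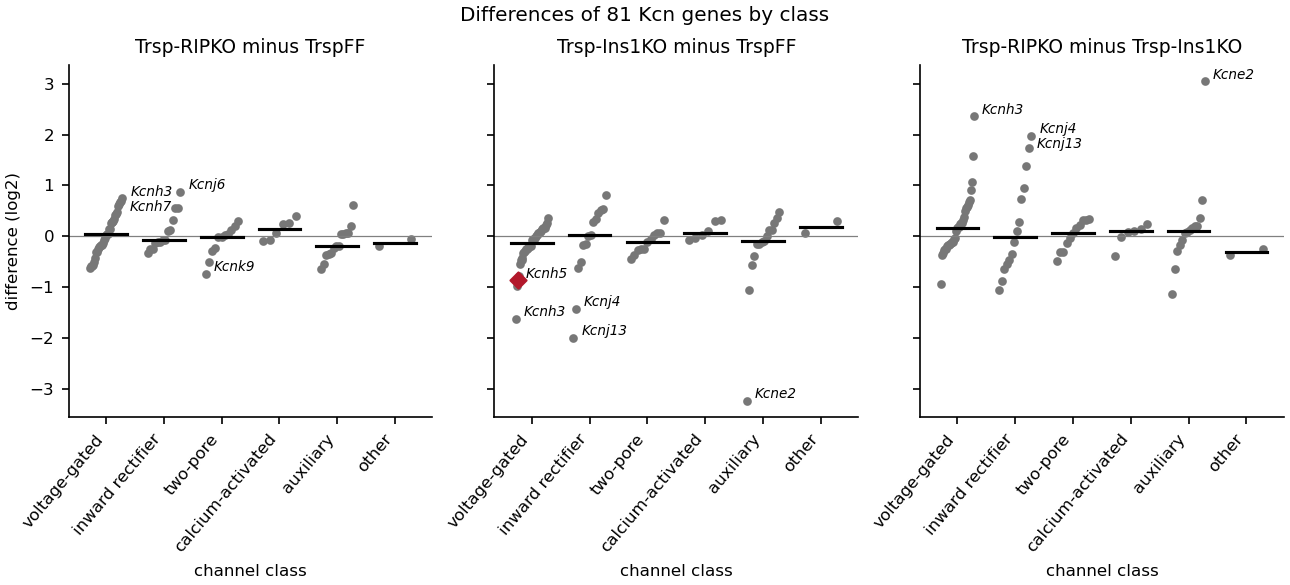
Difference in level (log2) of each of the 81 Kcn genes by channel class, for Trsp-RIPKO minus TrspFF, Trsp-Ins1KO minus TrspFF and Trsp-RIPKO minus Trsp-Ins1KO. Each point is a gene, each bar the class median, and the red diamond the 1 gene past an adjusted p of 0.05, Kcnh5 at -0.86 in Trsp-Ins1KO minus TrspFF; the 4 genes with the largest absolute difference in each panel are named.

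The differences are to be read against the spread between the arrays of a genotype. The median absolute difference between both arrays was 0.12 over the members and 0.12 over all genes in Trsp-RIPKO, 0.20 and 0.13 in Trsp-Ins1KO, and 0.23 and 0.16 in TrspFF. A difference of more than 1 log2 unit between replicate arrays occurred for 1 member in Trsp-RIPKO (Kcnmb1), for 5 members in Trsp-Ins1KO and for 4 members in TrspFF (Kcnj6, Kcnh6, Kcnh3 and Kcnq5).

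Kcnh5, on chromosome 12, encodes a voltage-gated subunit of the ether-a-go-go family found in neurons. Its levels were -1.83 and -1.90 on the Trsp-RIPKO arrays, -2.08 and -2.15 on the Trsp-Ins1KO arrays and -1.36 and -1.14 on the TrspFF arrays. All 4 knockout arrays were below both TrspFF arrays, and the arrays of a genotype lay close together. Kcnh5 fell by 0.86 ± 0.11 (SE) on the log2 scale in Trsp-Ins1KO against TrspFF (adjusted p = 0.0405, limma). The difference of Trsp-RIPKO minus TrspFF was -0.62 ± 0.11 and missed the threshold (adjusted p = 0.0710, limma), and the mean of both knockouts was 0.74 log2 units below TrspFF (adjusted p = 0.0322, limma). Trsp-RIPKO minus Trsp-Ins1KO was 0.25, with a 95% confidence interval of -0.03 to 0.52 (adjusted p = 0.288, limma), so a difference between the knockouts was not shown. Kcnh5 has 1 kept probe. The Trsp-Ins1KO call was lost with median scaling (adjusted p = 0.0631, limma), without the filter on dim probes (0.104) and when only both groups compared were fitted (0.121). It was also lost in 5 of the 6 fits that left out 1 array (adjusted p between 0.121 and 0.173, limma), and kept without TrspFF array 1 (0.0454), in a fit that takes the remaining TrspFF array to vary like the arrays of the other genotypes. The call for the mean of both knockouts was lost in all 6 of these fits (adjusted p between 0.0743 and 0.137, limma) and with median scaling (0.0547). With the value table's own column names the call belongs to Trsp-RIPKO, at -0.86 (adjusted p = 0.0406, limma).

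The 250 bases before the annotated start of Kcnh5 are shown because it is the called member and because the series names oxidative stress: the window was searched on both strands for the core of the antioxidant response element, TGACNNNGC, where N is any base. The sequence is RefSeq's for build GRCm38.p6, minus strand, chr12:75177333-75177582, 5′ to 3′ towards the start, with matches in capitals.
Kcnh5: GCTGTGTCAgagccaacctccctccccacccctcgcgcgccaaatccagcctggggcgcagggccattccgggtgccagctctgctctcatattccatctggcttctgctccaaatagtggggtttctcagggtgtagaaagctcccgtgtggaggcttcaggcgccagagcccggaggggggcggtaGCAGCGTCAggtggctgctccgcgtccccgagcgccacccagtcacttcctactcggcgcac
Matches begin 250 and 62 bases before the start, both on the reverse strand of the gene. The core was present in 10.2% of all 32851 windows of this length and in 14 of the 84 windows of the 60 members that the promoter table holds, which are those of Kcna4, Kcna6, Kcnab1, Kcnab2, Kcnc4, Kcne2, Kcne4, Kcnh5, Kcnj16, Kcnj6, Kcnk12, Kcnq1ot1 and Kcns3. A match describes the letters only.

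None of the other ether-a-go-go relatives passed the test in any comparison. Kcnh1, the closest relative of Kcnh5, had levels of -3.70 and -3.45 in Trsp-RIPKO, -4.11 and -4.20 in Trsp-Ins1KO and -3.88 and -3.85 in TrspFF. Its knockout arrays lay on opposite sides of the TrspFF arrays, with 0.29 ± 0.12 for Trsp-RIPKO minus TrspFF and -0.29 ± 0.12 for Trsp-Ins1KO minus TrspFF (SE), and neither passed (adjusted p = 0.218 and 0.198, limma). Kcnh4 was at -1.23 and -1.20 in Trsp-RIPKO, -1.77 and -1.66 in Trsp-Ins1KO and -1.38 and -1.14 in TrspFF, so that both Trsp-Ins1KO arrays were below all others. Its difference of Trsp-Ins1KO minus TrspFF was -0.46 ± 0.11 (adjusted p = 0.103, limma). Kcnh2, Kcnh6, Kcnh7 and Kcnh8 had differences of Trsp-Ins1KO minus TrspFF between 0.02 and 0.36.

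**Figure D3:**
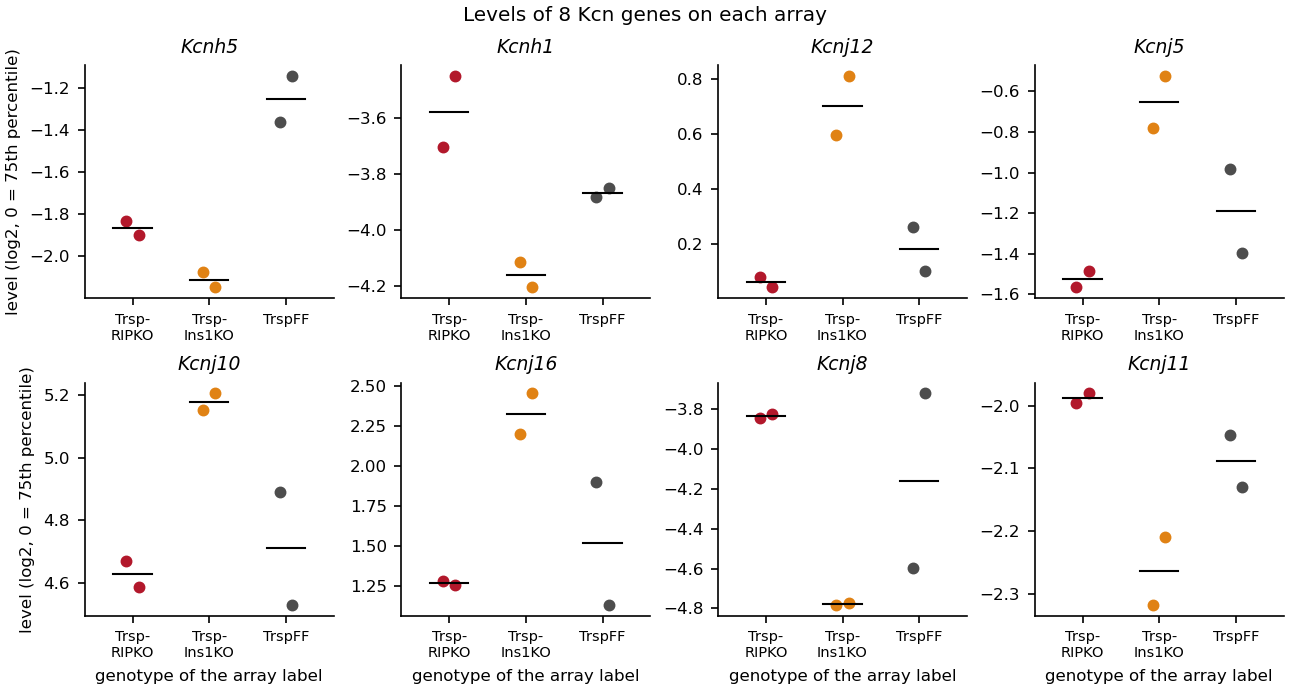
Level (log2, 0 is the 75th percentile of the array) of 8 Kcn genes on each array, by genotype, with points for arrays, bars for group means and a separate axis range for each gene. The knockout arrays of Kcnh5 all lie below both TrspFF arrays, whereas for Kcnh1, Kcnj12, Kcnj5 and Kcnj11 the Trsp-RIPKO and Trsp-Ins1KO arrays lie on opposite sides of the TrspFF arrays. Kcnj11 is shown by the brighter of its 2 kept probes, and the dimmer did not share this order.

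Among the delayed rectifier and A-type families, which repolarize action potentials and delay their onset, several genes had values below TrspFF in both knockouts without passing the test. Kcna4, an A-type subunit, was at 0.19 and 0.13 in Trsp-RIPKO, 0.48 and 0.37 in Trsp-Ins1KO and 0.86 and 0.59 in TrspFF. Kcna7 was at -1.12 and -1.43 in Trsp-RIPKO, -1.19 and -1.27 in Trsp-Ins1KO and -0.56 and -0.82 in TrspFF. Kcnc1, a subunit of fast-spiking neurons, was at 1.57 and 1.60 in Trsp-RIPKO, 1.71 and 1.96 in Trsp-Ins1KO and 2.06 and 2.11 in TrspFF. For these 3 genes all 4 knockout arrays were below both TrspFF arrays. Such separation was found for 6 of the 34 voltage-gated subunits, against 17.5% of all genes. In another 2, Kcnc4 and Kcnd3 (by its brightest probe), all 4 knockout arrays were above both TrspFF arrays, against 16.9% of all genes. The differences of Trsp-RIPKO minus TrspFF were -0.57 ± 0.12 for Kcna4, -0.58 ± 0.15 for Kcna7 and -0.50 ± 0.11 for Kcnc1 (SE; adjusted p = 0.0948, 0.124 and 0.100, limma). Those of Trsp-Ins1KO minus TrspFF were -0.30, -0.54 and -0.25 (adjusted p = 0.207, 0.122 and 0.236, limma). The values of Kcnc1 are those of the brightest of 3 kept probes. The others gave -0.18 and -0.02 for Trsp-RIPKO minus TrspFF, and the mean of the 3 probes gave -0.23. By both dimmer probes the Trsp-Ins1KO arrays overlapped those of TrspFF, and by the dimmest so did the Trsp-RIPKO arrays.

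The remaining members of these families moved less or unevenly. Kcna1, which limits repetitive firing of axons, was at 2.92 and 2.76 in Trsp-RIPKO, 2.44 and 2.72 in Trsp-Ins1KO and 2.93 and 3.17 in TrspFF, a difference of -0.47 ± 0.15 for Trsp-Ins1KO minus TrspFF (adjusted p = 0.144, limma). Kcna5 was at -3.09 and -3.21 in Trsp-RIPKO, -2.84 and -2.73 in Trsp-Ins1KO and -2.89 and -2.91 in TrspFF, so the knockouts lay narrowly on opposite sides of TrspFF. The A-type pore subunits Kcnd2 and Kcnd3 were within 0.17 log2 units of TrspFF in both knockouts: Kcnd2 was at 2.42 and 2.26 in Trsp-RIPKO, 2.52 and 2.45 in Trsp-Ins1KO and 2.44 and 2.52 in TrspFF. Kcnd3 was at 2.93 and 2.89 in Trsp-RIPKO, 2.84 and 3.04 in Trsp-Ins1KO and 2.74 and 2.81 in TrspFF. Both Trsp-RIPKO arrays of Kcnd2 were just below both TrspFF arrays, and all 4 knockout arrays of Kcnd3 just above them, and neither gene passed the test. These Kcnd3 values are those of the brighter of 2 kept probes. By the dimmer, all 4 knockout arrays were below both TrspFF arrays, by -0.69 in Trsp-RIPKO and -0.66 in Trsp-Ins1KO. Kcna2, Kcna3, Kcna6, Kcnb2, Kcnc2, Kcnc4 and Kcnd1 had differences of Trsp-RIPKO minus TrspFF between -0.42 (Kcnd1) and 0.43 (Kcnc2).

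Kcnq3 and Kcnq5 are subunits of the M current, a slow potassium current that muscarinic receptors and other Gq-coupled receptors close. Kcnq3 was at -2.34 and -2.67 in Trsp-RIPKO, -2.92 and -2.46 in Trsp-Ins1KO and -2.75 and -2.55 in TrspFF. Kcnq5 was at -1.68 and -1.24 in Trsp-RIPKO, -2.25 and -2.49 in Trsp-Ins1KO and -2.67 and -1.62 in TrspFF. The Kcnq5 arrays of both knockouts were apart, but the TrspFF arrays spanned the gap between them. These are values of the brighter of 2 kept Kcnq5 probes. By the dimmer, well above background on 0 Trsp-Ins1KO arrays, both Trsp-Ins1KO arrays were below both TrspFF arrays. Trsp-Ins1KO minus TrspFF was -1.16 by that probe and -0.23 by the brighter. Neither gene passed in any comparison, and the difference of Trsp-RIPKO minus TrspFF was 0.14 ± 0.21 for Kcnq3 and 0.68 ± 0.38 for Kcnq5 (SE). Kcnq1, known mainly from heart and epithelia, was dim, at -5.13 and -5.37 in Trsp-RIPKO, -6.01 and -5.74 in Trsp-Ins1KO and -5.66 and -5.70 in TrspFF, and was well above background on only 1 of the Trsp-Ins1KO arrays.

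Kcnj10 and Kcnj16 encode partner subunits that astrocytes use to take up potassium released by neurons. Kcnj10 was at 4.67 and 4.59 in Trsp-RIPKO, 5.15 and 5.20 in Trsp-Ins1KO and 4.89 and 4.53 in TrspFF. Kcnj16 was at 1.28 and 1.25 in Trsp-RIPKO, 2.20 and 2.45 in Trsp-Ins1KO and 1.90 and 1.13 in TrspFF. In both genes the Trsp-Ins1KO arrays were the highest and the arrays of each knockout lay close together, while the TrspFF arrays were spread. Trsp-RIPKO minus Trsp-Ins1KO was -0.55 ± 0.14 for Kcnj10 (95% confidence interval -0.92 to -0.18) and -1.06 ± 0.27 for Kcnj16 (-1.76 to -0.36), both at an adjusted p of 0.263 in limma. The 12 astrocyte markers, all well above background on every array, had a summed signal (in multiples of the 75th percentile of the array) of 226 and 216 in Trsp-RIPKO, 285 and 274 in Trsp-Ins1KO and 226 and 212 in TrspFF, with 0 of 12 called in any comparison. That sum mostly reads its brightest marker, Aldoc, at 7.29 and 7.20 in Trsp-RIPKO, 7.70 and 7.59 in Trsp-Ins1KO and 7.25 and 7.12 in TrspFF. The mean level of the 12 markers was 2.62 and 2.63 in Trsp-RIPKO, 2.79 and 2.85 in Trsp-Ins1KO and 2.74 and 2.65 in TrspFF. Their median difference of Trsp-RIPKO minus Trsp-Ins1KO was -0.22. The part of astrocyte content in the Kcnj10 and Kcnj16 values was not tested.

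Kcnj11 and Kcnj8 form the pores of ATP-sensitive channels, which close when cellular ATP is high. Kcnj11 is the form of beta cells and glucose-sensing neurons, and pairs with the sulfonylurea receptor Abcc8. Kcnj11 was at -2.0 and -1.98 in Trsp-RIPKO, -2.32 and -2.21 in Trsp-Ins1KO and -2.05 and -2.13 in TrspFF. Abcc8 was at 2.30 and 2.28 in Trsp-RIPKO, 1.80 and 1.87 in Trsp-Ins1KO and 1.95 and 2.25 in TrspFF. Both genes had their lowest values in Trsp-Ins1KO and their highest in Trsp-RIPKO, by 0.27 ± 0.09 for Kcnj11 and 0.45 ± 0.12 for Abcc8 (SE, adjusted p = 0.263 for both, limma). For Kcnj11 this holds for the brighter of 2 kept probes. By the dimmer, Trsp-RIPKO minus Trsp-Ins1KO was 0.07, and both knockouts were below TrspFF (-0.68 for Trsp-RIPKO and -0.75 for Trsp-Ins1KO). Kcnj8, the form of pericytes and vascular smooth muscle, was at -3.84 and -3.82 in Trsp-RIPKO, -4.78 and -4.77 in Trsp-Ins1KO and -4.60 and -3.72 in TrspFF. The arrays of each knockout were almost equal, and the TrspFF arrays spanned nearly the whole range. Trsp-RIPKO minus Trsp-Ins1KO was 0.95 ± 0.29 for Kcnj8 (95% confidence interval 0.19 to 1.70, adjusted p = 0.263, limma). This difference passed when TrspFF was left out of the fit (adjusted p = 0.0365, limma). That fit called 319 of all genes, against 4 with all arrays fitted, and Kcnj8 was the only 1 of the 81 members among them. The pass is therefore not particular to Kcnj8. Abcc9, the receptor that pairs with Kcnj8, was at -1.96 and -1.86 in Trsp-RIPKO, -2.39 and -2.10 in Trsp-Ins1KO and -2.84 and -2.16 in TrspFF. The 11 pericyte and smooth muscle markers, 10 of them well above background on every array, had a summed signal of 9.31 and 10.5 in Trsp-RIPKO, 7.54 and 6.74 in Trsp-Ins1KO and 9.21 and 9.45 in TrspFF, with 0 of 11 called. Their part in the Kcnj8 values was not tested.

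Kcnj3, Kcnj5, Kcnj6 and Kcnj9 form the G-protein-gated channels that opioid, GABA and neuropeptide receptors open. Kcnj5 was at -1.57 and -1.49 in Trsp-RIPKO, -0.78 and -0.52 in Trsp-Ins1KO and -0.98 and -1.39 in TrspFF. The Trsp-Ins1KO arrays were above, and the Trsp-RIPKO arrays below, both TrspFF arrays, and Trsp-RIPKO minus Trsp-Ins1KO was -0.87 ± 0.17 (95% confidence interval -1.32 to -0.42; adjusted p = 0.263, limma). Kcnj9 was at 0.43 and 0.21 in Trsp-RIPKO, 0.80 and 0.76 in Trsp-Ins1KO and 0.62 and 0.27 in TrspFF, with the Trsp-Ins1KO arrays highest. Kcnj3 was at -2.07 and -2.35 in Trsp-RIPKO, -2.36 and -2.25 in Trsp-Ins1KO and -2.39 and -2.28 in TrspFF, with no separation of the genotypes. Kcnj6 was at -2.82 and -2.94 in Trsp-RIPKO, -4.53 and -3.99 in Trsp-Ins1KO and -4.51 and -3.01 in TrspFF. The TrspFF arrays of Kcnj6 differed from each other by as much as the knockouts did. The 4 genes thus took different directions between the knockouts, with Trsp-RIPKO minus Trsp-Ins1KO at 0.10 ± 0.13 for Kcnj3, -0.46 ± 0.15 for Kcnj9 and 1.38 ± 0.52 for Kcnj6 (SE).

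Kcnj2, Kcnj4, Kcnj12 and Kcnj14 are the classical strong inward rectifiers, which hold cells at the resting potential. Kcnj12 was at 0.08 and 0.04 in Trsp-RIPKO, 0.59 and 0.81 in Trsp-Ins1KO and 0.26 and 0.10 in TrspFF. The Trsp-Ins1KO arrays were above, and the Trsp-RIPKO arrays below, both TrspFF arrays. Kcnj12 had the smallest unadjusted p of all members for Trsp-RIPKO minus Trsp-Ins1KO, at -0.64 ± 0.12 (95% confidence interval -0.94 to -0.34; adjusted p = 0.263, limma), and Trsp-Ins1KO minus TrspFF was 0.52 ± 0.12 (adjusted p = 0.0921, limma). Kcnj2 was dim, at -5.96 and -6.00 in Trsp-RIPKO, -7.06 and -6.36 in Trsp-Ins1KO and -6.89 and -6.20 in TrspFF, and was well above background on 1 array each of Trsp-Ins1KO and TrspFF. It passed the filter through Trsp-RIPKO alone, which favours a higher value there. Kcnj14 and Kcnj15 had differences between -0.34 and 0.27 in the 3 comparisons.

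Kcnj13 encodes an inward rectifier of the apical membrane of the choroid plexus, and Kcne2 an auxiliary subunit of the same epithelium, where both serve the secretion of cerebrospinal fluid. Kcnj13 was at 0.24 and 0.40 in Trsp-RIPKO, -0.04 and -2.80 in Trsp-Ins1KO and 0.88 and 0.27 in TrspFF. Kcne2 was at -0.61 and -0.20 in Trsp-RIPKO, -0.75 and -6.16 in Trsp-Ins1KO and 0.10 and -0.53 in TrspFF. Trsp-Ins1KO array 2 was far below the other 5 arrays for both genes, and the Kcne2 gap between the Trsp-Ins1KO arrays, 5.41 log2 units, was the widest between replicate arrays among the members. Trsp-Ins1KO minus TrspFF was -1.99 ± 0.91 for Kcnj13 and -3.24 ± 1.75 for Kcne2 (SE; adjusted p = 0.243 and 0.302, limma); without Trsp-Ins1KO array 2 it was -0.61 and -0.53. The 18 choroid plexus markers, 16 of them well above background on every array, had a summed signal of 62.3 and 72.5 in Trsp-RIPKO, 54.0 and 6.49 in Trsp-Ins1KO and 99.5 and 60.1 in TrspFF, with 0 of 18 called. Except on Trsp-Ins1KO array 2, that sum mostly reads Ttr. Levels of Ttr were 5.64 and 5.89 in Trsp-RIPKO, 5.39 and -0.95 in Trsp-Ins1KO and 6.31 and 5.56 in TrspFF. The mean level of the 18 markers was -0.91 and -0.72 in Trsp-RIPKO, -1.15 and -3.04 in Trsp-Ins1KO and -0.20 and -0.85 in TrspFF. The part of choroid plexus content in the Kcnj13 and Kcne2 values was not tested.

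The windows before the start of Kcnj13 and the upstream start of Kcne2 are shown because the pair shared a pattern across arrays (RefSeq, GRCm38.p6, 5′ to 3′ towards the start). Capitals mark a TATAAA match in the minus-strand window chr1:87394730-87394979 of Kcnj13 and an antioxidant core match in the plus-strand window chr16:92292139-92292388 of Kcne2, both strands having been searched.
Kcnj13: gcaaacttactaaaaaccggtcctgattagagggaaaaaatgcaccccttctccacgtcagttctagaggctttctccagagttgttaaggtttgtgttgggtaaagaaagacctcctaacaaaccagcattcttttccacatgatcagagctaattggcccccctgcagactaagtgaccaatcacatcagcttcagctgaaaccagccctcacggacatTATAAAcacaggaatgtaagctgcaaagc
Kcne2: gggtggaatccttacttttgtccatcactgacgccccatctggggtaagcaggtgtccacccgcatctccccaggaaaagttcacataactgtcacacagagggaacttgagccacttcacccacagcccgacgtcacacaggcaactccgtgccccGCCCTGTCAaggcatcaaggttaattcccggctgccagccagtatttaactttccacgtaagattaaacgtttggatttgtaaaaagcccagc
The TATAAA match begins 29 bases before the Kcnj13 start and the antioxidant core match 93 bases before the Kcne2 start. TATAAA was present in 12.4% of all windows and in 3 of the 84 windows of members, those of Kcnj13, Kcnj16 and Kcnj9. No match of one motif overlapped a match of the other in the printed windows.

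With Kcne2 and Kcnj13, Kcnh3, Kcnj4 and Kcnv1 were the 5 members with the largest absolute differences between the knockouts, and they were singled out after their values were seen. Kcnh3 is an ether-a-go-go-like subunit of the forebrain, Kcnj4 a strong inward rectifier of forebrain neurons, and Kcnv1 a silent subunit that forms no channel alone and modifies other voltage-gated subunits. Kcnh3 was at 1.81 and 1.90 in Trsp-RIPKO, 0.60 and -1.61 in Trsp-Ins1KO and 0.56 and 1.66 in TrspFF. Kcnj4 was at 1.99 and 1.90 in Trsp-RIPKO, 0.86 and -0.93 in Trsp-Ins1KO and 0.92 and 1.87 in TrspFF. Kcnv1 was at -1.68 and -1.42 in Trsp-RIPKO, -2.34 and -3.91 in Trsp-Ins1KO and -2.61 and -1.67 in TrspFF. In all 3 genes both Trsp-RIPKO arrays were above both Trsp-Ins1KO arrays, Trsp-Ins1KO array 2 was the lowest, and the TrspFF arrays were about 1 log2 unit apart. Trsp-RIPKO minus Trsp-Ins1KO was 2.36 ± 0.80 for Kcnh3, 1.98 ± 0.65 for Kcnj4 and 1.57 ± 0.60 for Kcnv1 (SE; adjusted p = 0.263, 0.263 and 0.270, limma). Without Trsp-Ins1KO array 2 the same differences were 1.26, 1.08 and 0.79. The 11 cortex and hippocampus markers, 9 of them well above background on every array, had a mean level of -1.09 and -1.04 in Trsp-RIPKO, -1.82 and -3.37 in Trsp-Ins1KO and -2.05 and -1.36 in TrspFF, and a summed signal of 10.5 and 10.6 in Trsp-RIPKO, 6.42 and 2.60 in Trsp-Ins1KO and 5.62 and 8.20 in TrspFF. None of these 11 markers was called in limma, where 4 of them had an unadjusted p under 0.05 for Trsp-RIPKO minus Trsp-Ins1KO and their median difference was 1.59. The part of such tissue in the values of the 3 genes was not tested.

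**Figure D4:**
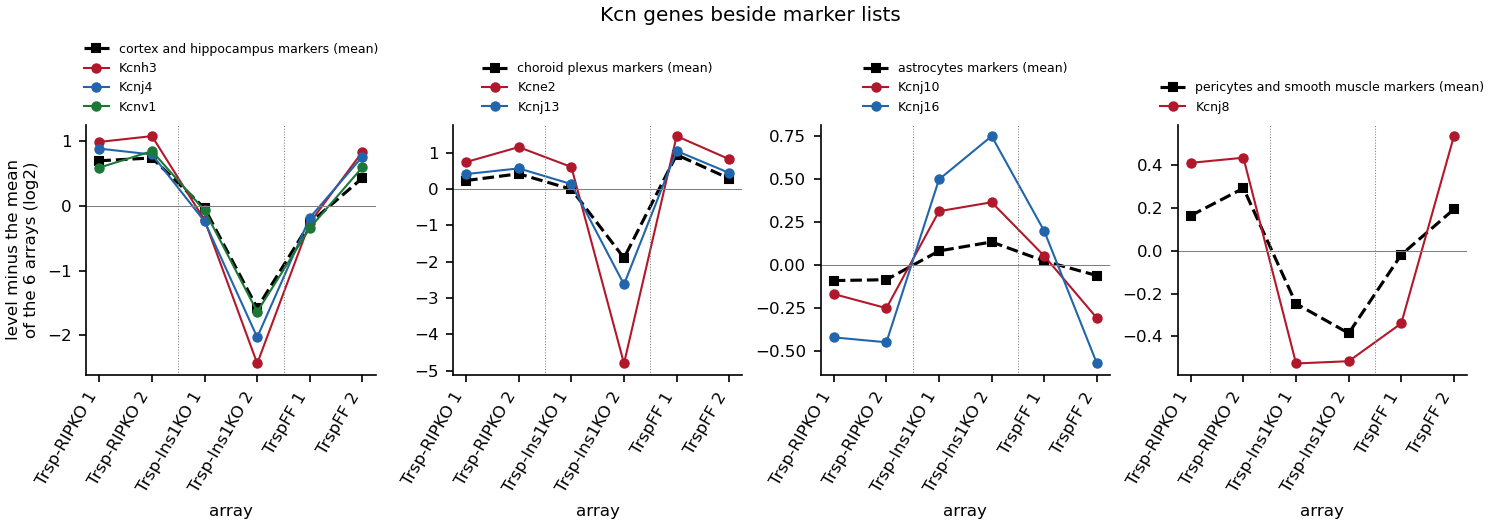
Level minus the mean of the 6 arrays (log2) of 8 Kcn genes on each array beside the mean level of the marker list they are set against; the lines only join the points of a gene or list, and replicate arrays have no order. Kcnh3, Kcnj4 and Kcnv1 and the cortex and hippocampus markers are lowest on Trsp-Ins1KO array 2, as are Kcne2, Kcnj13 and the choroid plexus markers, whereas Kcnj10, Kcnj16 and the astrocyte markers are highest on the Trsp-Ins1KO arrays.

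The other silent subunits, which also act through other voltage-gated subunits, had no called member. Kcns1 was at -3.44 and -3.10 in Trsp-RIPKO, -3.97 and -4.68 in Trsp-Ins1KO and -3.90 and -3.20 in TrspFF, with both Trsp-Ins1KO arrays lowest. Kcnf1 was at -0.44 and -0.04 in Trsp-RIPKO, -0.90 and -0.72 in Trsp-Ins1KO and -1.20 and -0.55 in TrspFF. Kcng1, Kcns2 and Kcns3 had differences of Trsp-RIPKO minus TrspFF of 0.30, 0.03 and 0.34 (log2).

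Two-pore channels carry the leak that sets the resting potential, and 0 of the 11 passed in any comparison. Kcnk9, an acid-sensitive channel, was at -5.43 and -5.59 in Trsp-RIPKO, -5.09 and -4.95 in Trsp-Ins1KO and -4.53 and -5.01 in TrspFF. Kcnk16, known from the pancreas, was at -5.02 and -5.01 in Trsp-RIPKO, -4.98 and -4.80 in Trsp-Ins1KO and -4.39 and -4.64 in TrspFF. Both Trsp-RIPKO arrays were below both TrspFF arrays in these dim genes, by 0.74 ± 0.19 for Kcnk9 and 0.50 ± 0.12 for Kcnk16 on the log2 scale (SE; adjusted p = 0.119 and 0.116, limma). Kcnk15 was at -5.22 and -5.19 in Trsp-RIPKO, -5.19 and -5.52 in Trsp-Ins1KO and -4.80 and -5.03 in TrspFF. Kcnk3, the acid-sensitive relative of Kcnk9, was at -0.23 and -0.26 in Trsp-RIPKO, -0.05 and 0.16 in Trsp-Ins1KO and -0.11 and -0.41 in TrspFF. Its Trsp-RIPKO arrays lay between the TrspFF arrays. Kcnk1 was at 1.94 and 1.98 in Trsp-RIPKO, 1.53 and 1.69 in Trsp-Ins1KO and 1.54 and 1.79 in TrspFF. Kcnk12 was at -1.30 and -1.34 in Trsp-RIPKO, -1.63 and -1.67 in Trsp-Ins1KO and -1.54 and -1.21 in TrspFF. In both genes the Trsp-RIPKO arrays lay above the Trsp-Ins1KO arrays, by 0.35 ± 0.12 and 0.33 ± 0.13 (SE; adjusted p = 0.264 and 0.272, limma). The stretch- and lipid-sensitive channels Kcnk2, Kcnk4 and Kcnk10, and Kcnk6 and Kcnk13, had differences between -0.25 and 0.21 against TrspFF in either knockout.

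The calcium-activated class had the narrowest range of the 5 channel classes, between -0.09 and 0.40 for Trsp-RIPKO minus TrspFF, and 0 of its 6 members passed. Kcnma1, the large-conductance channel opened by both voltage and calcium, was at 2.39 and 2.34 in Trsp-RIPKO, 2.14 and 2.09 in Trsp-Ins1KO and 1.94 and 2.26 in TrspFF. Kcnn2, a small-conductance channel of the afterhyperpolarization, was at 1.32 and 1.46 in Trsp-RIPKO, 1.89 and 1.68 in Trsp-Ins1KO and 1.69 and 1.23 in TrspFF. Kcnma1 was higher and Kcnn2 lower in both Trsp-RIPKO arrays than in both Trsp-Ins1KO arrays, by 0.25 ± 0.13 and -0.39 ± 0.18 (SE; adjusted p = 0.341 and 0.301, limma). The sodium-activated channels Kcnt1 and Kcnt2 had all 4 knockout arrays above both TrspFF arrays, Kcnt2 by the brighter of its 2 kept probes. Kcnt1 was at 0.95 and 1.00 in Trsp-RIPKO, 0.80 and 0.87 in Trsp-Ins1KO and 0.71 and 0.74 in TrspFF. Kcnt2 was at -3.36 and -3.58 in Trsp-RIPKO, -3.54 and -3.61 in Trsp-Ins1KO and -3.97 and -3.77 in TrspFF. The dimmer Kcnt2 probe, well above background on 0 Trsp-Ins1KO arrays, gave -0.41 for Trsp-Ins1KO minus TrspFF, against 0.30 by the brighter. It gave 0.17 for Trsp-RIPKO minus TrspFF and -0.12 for the mean of both knockouts minus TrspFF. By the brightest probe of each gene, the mean of both knockouts minus TrspFF was 0.18 ± 0.07 for Kcnt1 and 0.35 ± 0.11 for Kcnt2 (SE, adjusted p = 0.201 and 0.133, limma). Such separation of all 4 knockout arrays was found for 15 members (18.5%), against 34.3% of all genes; 4 were higher, against 16.9% of all genes, and 11 lower, against 17.5%. Kcnn3 and the sperm channel Kcnu1 were within 0.10 log2 units of TrspFF in both knockouts.

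Auxiliary subunits change the gating or the surface number of pore subunits, and 0 of the 14 passed. Kcnab2, a beta subunit of Kcna channels with the fold of an aldo-keto reductase, came closest after Kcnh5: it was at -3.91 and -4.02 in Trsp-RIPKO, -4.24 and -4.09 in Trsp-Ins1KO and -3.60 and -3.62 in TrspFF. All 4 knockout arrays were below both TrspFF arrays. Trsp-Ins1KO minus TrspFF was -0.56 ± 0.10 and the mean of both knockouts minus TrspFF -0.46 ± 0.08 (SE; adjusted p = 0.0676 and 0.0590, limma). Kcnab1 was at 1.81 and 1.95 in Trsp-RIPKO, 1.71 and 1.67 in Trsp-Ins1KO and 1.94 and 2.22 in TrspFF, and Kcnab3 showed no separation.

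The Kcnip subunits bind calcium and Kcnd channels. Kcnip2 was at -2.43 and -2.68 in Trsp-RIPKO, -2.89 and -3.63 in Trsp-Ins1KO and -2.18 and -2.24 in TrspFF, so that all 4 knockout arrays were below both TrspFF arrays. Trsp-Ins1KO minus TrspFF was -1.05 ± 0.26 (SE; adjusted p = 0.106, limma), and -0.68 without Trsp-Ins1KO array 2. The 11 striatum markers, all well above background on every array, had a summed signal of 18.7 and 17.6 in Trsp-RIPKO, 17.8 and 17.6 in Trsp-Ins1KO and 21.5 and 25.6 in TrspFF; 1 of the 11 was called lower in Trsp-RIPKO and 2 in Trsp-Ins1KO, where 1.66% and 1.82% of all genes were called against TrspFF. Their part in the Kcnip2 values was not tested. Kcnip1 was at -0.82 and -0.63 in Trsp-RIPKO, -0.49 and -0.39 in Trsp-Ins1KO and -0.74 and -0.86 in TrspFF. Kcnip3, which also acts as a transcriptional repressor, was at 3.96 and 3.91 in Trsp-RIPKO, 3.87 and 3.83 in Trsp-Ins1KO and 3.63 and 3.84 in TrspFF. Kcnip4 was at 3.11 and 2.98 in Trsp-RIPKO, 2.89 and 3.08 in Trsp-Ins1KO and 2.88 and 3.08 in TrspFF. Kcnip1 had its Trsp-Ins1KO arrays highest, whereas the Trsp-Ins1KO arrays of Kcnip3 and Kcnip4 overlapped those of TrspFF.

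The remaining auxiliary genes were dim or uneven. Kcne1l, a member of the Kcne family on chromosome X, was at -0.22 and -0.26 in Trsp-RIPKO, 0.39 and 0.44 in Trsp-Ins1KO and 0.55 and 0.05 in TrspFF, with both Trsp-RIPKO arrays lowest. Trsp-RIPKO minus Trsp-Ins1KO was -0.65 ± 0.18 (SE; adjusted p = 0.263, limma). Kcne3 was well above background on 2 Trsp-RIPKO arrays, 1 Trsp-Ins1KO array and 0 TrspFF arrays. It thus passed the filter through Trsp-RIPKO alone, which favours a higher value there, so its difference is description only. Set against the lowest signal well above background on each TrspFF array, it was at least 1.01-fold higher in Trsp-RIPKO (measured means -6.26 in Trsp-RIPKO and -6.87 in TrspFF; adjusted p of the fit 0.191, limma), and its Trsp-Ins1KO mean of -6.62 gave no bound above 1. Kcnmb1, the smooth muscle subunit of Kcnma1, was at -7.09 and -5.40 in Trsp-RIPKO, -4.87 and -5.35 in Trsp-Ins1KO and -5.31 and -5.88 in TrspFF, so that its replicate arrays differed as much as its genotypes. It was dim, and well above background on only 1 of the Trsp-RIPKO arrays. The neuronal subunits Kcnmb2 and Kcnmb4 were within 0.23 log2 units of TrspFF in both knockouts, and Kcne4 within 0.32. The noncoding transcript Kcnq1ot1 was at 0.09 and -0.38 in Trsp-RIPKO, 0.28 and -0.06 in Trsp-Ins1KO and 0.10 and -0.02 in TrspFF. Kcnrg, named as a regulator of potassium channels, was at -3.71 and -4.05 in Trsp-RIPKO, -3.45 and -3.58 in Trsp-Ins1KO and -3.57 and -4.06 in TrspFF.

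Kcnh1, Kcna5, Kcnq1, Kcnj4, Kcnj5, Kcnj11 and Kcnj12 were the 7 members (8.64%) whose Trsp-RIPKO and Trsp-Ins1KO arrays all lay on opposite sides of both TrspFF arrays, against 3.89% of all genes. Kcnh1, Kcnq1, Kcnj4 and Kcnj11 were higher in Trsp-RIPKO and lower in Trsp-Ins1KO than TrspFF, and Kcna5, Kcnj5 and Kcnj12 the reverse. None of the 7 passed in any comparison in limma, where their unadjusted p for Trsp-RIPKO minus Trsp-Ins1KO lay between 0.00276 and 0.0303. The order of arrays by which they were picked already sets the knockouts apart, so these p-values are no separate support.

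Several members are neighbours in the genome, with no other protein-coding gene between them in the gene table. Kcnj9 and Kcnj10, on chromosome 1, had differences of Trsp-RIPKO minus Trsp-Ins1KO of -0.46 and -0.55, of the same sign. Kcnj16 and Kcnj2, on chromosome 11, had differences of -1.06 and 0.73, of opposite sign. Kcnip1 and Kcnmb1, also on chromosome 11, had -0.29 and -1.13, and Kcna3 and Kcna2, on chromosome 3, had -0.17 and -0.11, of the same sign in both pairs. On chromosome 16, Kcnj6 had 1.38 and its neighbour Kcnj15 -0.11. On chromosome 6, Kcna5, Kcna1 and Kcna6 follow each other and had -0.36, 0.26 and -0.19. Neighbours thus took the same sign in some pairs and opposite signs in others.

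Of the 81 members, 24 had several kept probes, of which the brightest was tested. For some of them the dimmer probe gave another sign: Trsp-RIPKO minus TrspFF was 0.14 by the brighter and -0.69 by the dimmer Kcnd3 probe, 0.20 and -0.89 for Kcnip3, and 0.10 and -0.68 for Kcnj11. For Kcna5, Trsp-RIPKO minus Trsp-Ins1KO was -0.36 by the brighter and 0.11 by the dimmer probe, and by the dimmer probe both knockouts had means below TrspFF (-0.13 for Trsp-RIPKO and -0.24 for Trsp-Ins1KO). For Kcnj13 both probes gave the same sign and like sizes, -1.99 and -1.60 for Trsp-Ins1KO minus TrspFF. Probes of 1 gene can read different transcripts, and which of them the probes of Kcnd3, Kcnip3, Kcnj11 and Kcna5 read was not tested.

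Partner proteins and pumps, listed apart from the members, comprised 23 genes, of which 19 were tested. In Trsp-RIPKO against TrspFF 0 of the 19 were called, where 1.66% of all genes were. In Trsp-Ins1KO against TrspFF 1 was called lower, as were 1.58% of all genes: Lrrc38, a leucine-rich partner of Kcnma1. Lrrc38 was at -1.67 and -1.68 in Trsp-RIPKO, -1.75 and -1.72 in Trsp-Ins1KO and -1.12 and -1.15 in TrspFF. It fell by 0.60 ± 0.08 (SE) on the log2 scale in Trsp-Ins1KO (adjusted p = 0.0414, limma), and Trsp-RIPKO minus TrspFF was -0.54 ± 0.08 (adjusted p = 0.0531, limma). For the mean of both knockouts minus TrspFF, Lrrc38 was called at -0.57 (adjusted p = 0.0281, limma). All 4 knockout arrays were below both TrspFF arrays in Lrrc38. Of 10 sodium channel genes tested, 0 were called in any comparison, with a smallest adjusted p of 0.0635 in limma (Scn8a, mean of both knockouts minus TrspFF, -0.64); 3 of the 10 were lower and 2 higher at an unadjusted p under 0.05 there, against 26.1% of all genes in either direction. Of 24 calcium channel genes tested, 3 were called lower in Trsp-Ins1KO against TrspFF, where 1.58% of all genes were, and 0 were called in Trsp-RIPKO, where 1.66% of all genes were: Cacng6 at -1.33, Cacna1h, a T-type pore subunit, at -0.93 and Cacng4 at -0.90 (adjusted p = 0.0358, 0.0391 and 0.0361, limma). In Trsp-RIPKO their differences were -1.07, -0.37 and -0.38 (adjusted p = 0.0532, 0.154 and 0.133, limma). Cacna1h was at 0.32 and 0.07 in Trsp-RIPKO, -0.31 and -0.42 in Trsp-Ins1KO and 0.57 and 0.57 in TrspFF, with all 4 knockout arrays below both TrspFF arrays.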

How the data were processed

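Total RNA was labelled with Cy3 by a low-input kit, per the labels, and per the file headers Agilent Feature Extraction 10.7.3.1 read the arrays, whose annotation follows mouse build mm9. The deposited scanner files give background-subtracted intensity per spot, with quality flags. The deposited value table holds log2 values of the same probes, close to a median of 0 for each array (-0.05 to 0.05) and centred on each probe's median; its between-array scaling is unknown here, and it served only as an alternative.

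From the scanner files, unflagged spots of a probe were averaged (39429 probes, of which 118 had only flagged spots on some array and were left out), and the log2 intensity minus the log2 75th percentile of the array was used. Symbols came from the transcript accessions through a RefSeq gene table of build GRCm38.p6, and 26055 probes (66.1%) received one. Probes were kept when well above background on both arrays of any genotype (28065 probes, 106 of them for Kcn genes), and a gene was read from its brightest kept probe. Of the 98 Kcn genes, 60 tested ones had promoter windows in the RefSeq table. Limma 3.58.1 in R 4.3.3 (with jsonlite 2.0.0) fitted all 6 arrays and 22863 genes with lmFit and eBayes, with Benjamini-Hochberg adjustment and a threshold of 0.05; degrees of freedom were 4.87 and the median SE of a difference was 0.127 (log2). The procedure was tested on simulated data. The number of arrays limits the precision.

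Values in every sample are given for members past the threshold, for the 3 with the smallest unadjusted p of each class in each comparison of 2 genotypes and for members fixed by role; other members named with values were chosen after their values were seen. Members, classes, marker lists and tests were chosen with earlier results of these data known. Alternatives were normexp background correction (offset 50), quantile normalization, median scaling, the value table, no filter, a filter on all 6 arrays, the mean of a gene's probes, eBayes with trend and robust, only the 2 groups compared, a replicate block and leaving out each array. The value table by matched array was added after seeing the data. Same-numbered arrays did not deviate together (correlation of deviations -0.02, -0.03 and 0.09), so the numbers were not taken as pairs. Results of some genes are not reported here.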

Additional observations from a re-analysis of the deposited data

Results flagged for a closer look

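In 7 members the Trsp-RIPKO arrays and the Trsp-Ins1KO arrays lay on opposite sides of both TrspFF arrays; that the effects oppose was not tested as such, and none of the 7 passed against TrspFF in either knockout (limma). Trsp-RIPKO minus Trsp-Ins1KO was 0.27 for Kcnj11, 1.98 for Kcnj4, 0.58 for Kcnh1 and 0.62 for Kcnq1, which were higher in Trsp-RIPKO, and -0.64 for Kcnj12, -0.87 for Kcnj5 and -0.36 for Kcna5, which were lower in Trsp-RIPKO (log2). None had an adjusted p under 0.05 in limma for this difference in the fit of all 6 arrays. The members were chosen for the order of their arrays, so leaving out 1 array cannot turn these signs. A second kept probe did not share the pattern in Kcna5, where Trsp-RIPKO minus Trsp-Ins1KO was 0.11 and the means of both knockouts were below TrspFF (-0.13 for Trsp-RIPKO and -0.24 for Trsp-Ins1KO), or in Kcnj11, where both were also below TrspFF (-0.68 and -0.75). For Kcnj4 the difference was 1.08 without Trsp-Ins1KO array 2. All 4 knockout arrays share 1 slide. With the value table's column names every one of these signs turns, since the names of the knockouts are exchanged there.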

How the results depend on the processing

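Limits: with 2 arrays per genotype, small effects could not be called, and 4 members were not well above background on every array. The slide of the TrspFF arrays differs from that of the knockouts. The count of called members for Trsp-RIPKO minus TrspFF stayed 0 in every alternative except the deposited value table by column label, where it was 1 (Kcnh5). For Trsp-Ins1KO minus TrspFF the count was 0 with median scaling, with the value table by column label, with no filter, with only the 2 groups compared and with the replicate block, and 2 with eBayes with trend and robust (Kcnh5 and, higher, Kcnj12); leaving out 1 array gave 0 to 2 (Kcnh5 and Kcnj8 without TrspFF array 1, where the lone TrspFF array is assumed to vary like the other groups, as in every such fit). For Trsp-RIPKO minus Trsp-Ins1KO the count was 1 (Kcnj8, higher) with only the 2 groups compared, and 0 to 1 with 1 array left out (Kcnj8 without either TrspFF array). For the mean of both knockouts minus TrspFF the count was 2 with normexp (Kcna4 and Kcnh5) and with the filter on all 6 arrays (Kcnab2 and Kcnh5), 0 with median scaling, no filter or the replicate block, and 0 in every fit with 1 array left out. Counts over all genes moved too. For Trsp-Ins1KO minus TrspFF they were 416 as reported, 1240 with eBayes with trend and robust, 298 with median scaling and 25 with no filter. They were 0 with only the 2 groups compared and with the replicate block. For Trsp-RIPKO minus Trsp-Ins1KO they were 4 as reported and 319 with only the 2 groups compared. For the mean of both knockouts they were 847 as reported, 1190 with normexp and 119 with the replicate block. Fewer tested genes or fewer arrays come with the filters and the smaller fits. For other settings the cause was not tested.

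The median difference of the members was -0.0207 for Trsp-RIPKO minus TrspFF as reported, 0.0355 with quantile normalization, 0.0851 with median scaling and -0.0603 to 0.0360 with 1 array left out. Median scaling placed the median of all genes at 0.0914 in the same comparison, against -0.0144 as reported. For Trsp-Ins1KO minus TrspFF it was 0.0375 with median scaling (all genes 0.1084) and -0.1297 to -0.0074 with 1 array left out. For Trsp-RIPKO minus Trsp-Ins1KO it was -0.0938 by the value table's column labels, 0.0251 with no filter and 0.0267 to 0.1507 with 1 array left out. For the mean of both knockouts minus TrspFF it was 0.0176 with quantile normalization and 0.064 with median scaling. The Trsp-RIPKO minus Trsp-Ins1KO median was above 0 in every setting except the value table by column labels, which exchanges the names of the knockouts; the medians against TrspFF took both signs in Trsp-RIPKO, in Trsp-Ins1KO and in the mean of both knockouts.

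The replicate block, fitted although the numbers did not pair the arrays, gave 0 called members in all 4 comparisons, with an adjusted p of 0.104 for Kcnh5 in Trsp-Ins1KO minus TrspFF (limma). Among values of single members over all alternatives, 4781 stayed within the spread between replicates or on the same side of the threshold, 603 moved further, 8 passed the threshold, 19 no longer passed it (all Kcnh5) and 0 called values changed sign.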
